A study of Mus musculus with 6 samples.

Results

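Cyclins and cyclin-dependent kinase (CDK) inhibitors set the pace at which a cell leaves G1 phase and starts DNA synthesis, and 10 of their genes were followed here in mouse ovaries with and without the receptor for follicle-stimulating hormone (FSH). The genes were taken by name: the D-type cyclins Ccnd1, Ccnd2 and Ccnd3, the E-type cyclins Ccne1 and Ccne2, the inhibitors Cdkn1a, Cdkn1b, Cdkn1c and Cdkn2c, and the kinase gene Cdk4. They had 25 probe sets whose annotation gives that single symbol, among 45101 probe sets in all, and the annotation names 18194 genes. Of these 25, 22 reached the signal needed for testing.

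Whole ovaries came from female mice 8 months old on the 129T2 svEmsJ background, bred from heterozygous parents. The 3 wild-type (WT) samples carried an intact Fshr gene, and the 3 FORKO samples came from mice in which all variants of the FSH receptor were deleted. Each RNA sample held both ovaries, the number of mice behind it is not stated, and 1 Affymetrix Mouse Genome 430 2.0 array was used per sample. The free-text descriptions of the FORKO samples speak of wild-type mice, against their titles and genotype fields, which were followed here.

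D-type cyclins bind Cdk4 and its relative Cdk6, and the active pair phosphorylates the retinoblastoma protein, which releases E2F transcription factors. Ccne1 and Ccne2 are among the genes that E2F factors switch on, and cyclin E with Cdk2 completes the passage into S phase. The CIP/KIP proteins p21, p27 and p57 (Cdkn1a, Cdkn1b, Cdkn1c) and the INK4 protein p18 (Cdkn2c) restrain these kinases. In the ovary, Ccnd2 is known as the cyclin through which FSH drives granulosa cells to divide, and Cdkn1b as a brake that accompanies the exit from the cycle when follicles luteinise.

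The arrays read Fshr at 99.6, 59.4 and 118.8 in WT and at 1.2, 11.2 and 11.7 in FORKO, with no overlap, although where its probe set lies relative to the deletion is not known here. Ovarian markers were present in both groups: among granulosa markers Inha, Amhr2 and Foxl2 were bright, whereas Amh and Cyp19a1 did not reach the filter. FORKO replicate 1 stood apart from the other arrays. It read 54.2 for the activin subunit gene Inhba and 42.0 for follistatin (Fst), which read 3867 and 1832 in FORKO replicate 2. The median of 9 granulosa markers, Fshr itself among them, as a log2 difference from the WT mean, was -3.03 for FORKO replicate 1. It was 0.37 for replicate 2 and 0.30 for replicate 3. On FORKO replicate 1, Amhr2 (0.78) and Foxl2 (0.31) lay above the WT mean, and the rest lay below it. For 7 surface epithelium markers the medians by array were 1.53, 0.28 and 0.67. All 7 had positive changes and 2 passed, Krt8 and Krt18, with Krt8 at 1.05, 1.07 and 1.08 on the 3 FORKO arrays. For 6 macrophage markers, all with positive changes and 0 past the test, the medians were 1.42, 0.13 and 0.39. Without FORKO replicate 1, 2 of the 7 and 2 of the 6 had negative changes. For the oviduct markers Ovgp1 and Wfdc2 the medians were 1.09, 2.48 and 2.08, and neither passed. Ovgp1 read 32.8, 12.7 and 34.4 in WT and 27.2, 247.0 and 183.9 in FORKO. Further lists had medians below WT on every FORKO array. All 6 measured oocyte markers had negative changes, of which 3 passed (Zp2, Oosp1 and Zar1), with array medians of -1.44, -0.94 and -0.82. For 5 luteal markers, 4 of them with negative changes and 0 past the test (3 at an unadjusted p under 0.05 in limma's fit), the medians were -1.17, -0.50 and -0.51. For 5 smooth muscle markers, all with negative changes and 1 past the test (Actg2), they were -1.04, -0.56 and -0.64. Without FORKO replicate 1, the change of Acta2 turned positive (0.33), and the median change of these markers was -0.51. In whole ovaries, fewer cells of a type and less RNA per cell cannot be told apart. The part of cell makeup in the results below was not tested.

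Signals below are scaled array intensities. Log2 changes compare FORKO with WT as differences of log2(signal + 5.73); the added constant shrinks the changes of dim probe sets. They are given with the standard error (SE) and the p from limma's moderated test, adjusted over all 22506 probe sets tested; a probe set passed at an adjusted p under 0.05. The exact permutation test of 3 against 3 arrays cannot go below 0.1. Unadjusted p values under 0.05 were common: in limma's test a p of 0.0504 ranked 3300 among the 22506 probe sets.

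Of the 22 tested probe sets 3 passed, both of Cdkn1a and 1 of Cdkn1b, against 1.65% of all probe sets tested. The dimmer Cdkn1a probe set among them had a WT mean under the filter; of the 21 whose means reached it in both groups, 2 passed. Cdkn1a rose, as did 1.06% of all, and Cdkn1b fell, as did 0.595%. By gene, each represented by its brightest probe set, 1 of the 10 rose, 1 fell and 8 did not pass, against 2.14% of all genes that passed, with a median log2 change of -0.14 (-0.28 to 0.02 with an array left out, turning positive without WT replicate 3) beside -0.02 over 11199 genes. The arrays of both groups did not overlap for 9 member probe sets, 6 with all FORKO arrays above and 3 with all below, against 20.4% of all probe sets tested (9.99% above and 10.4% below). The genes were chosen with earlier results of these data known, so these counts are a description.

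**Figure D1:**
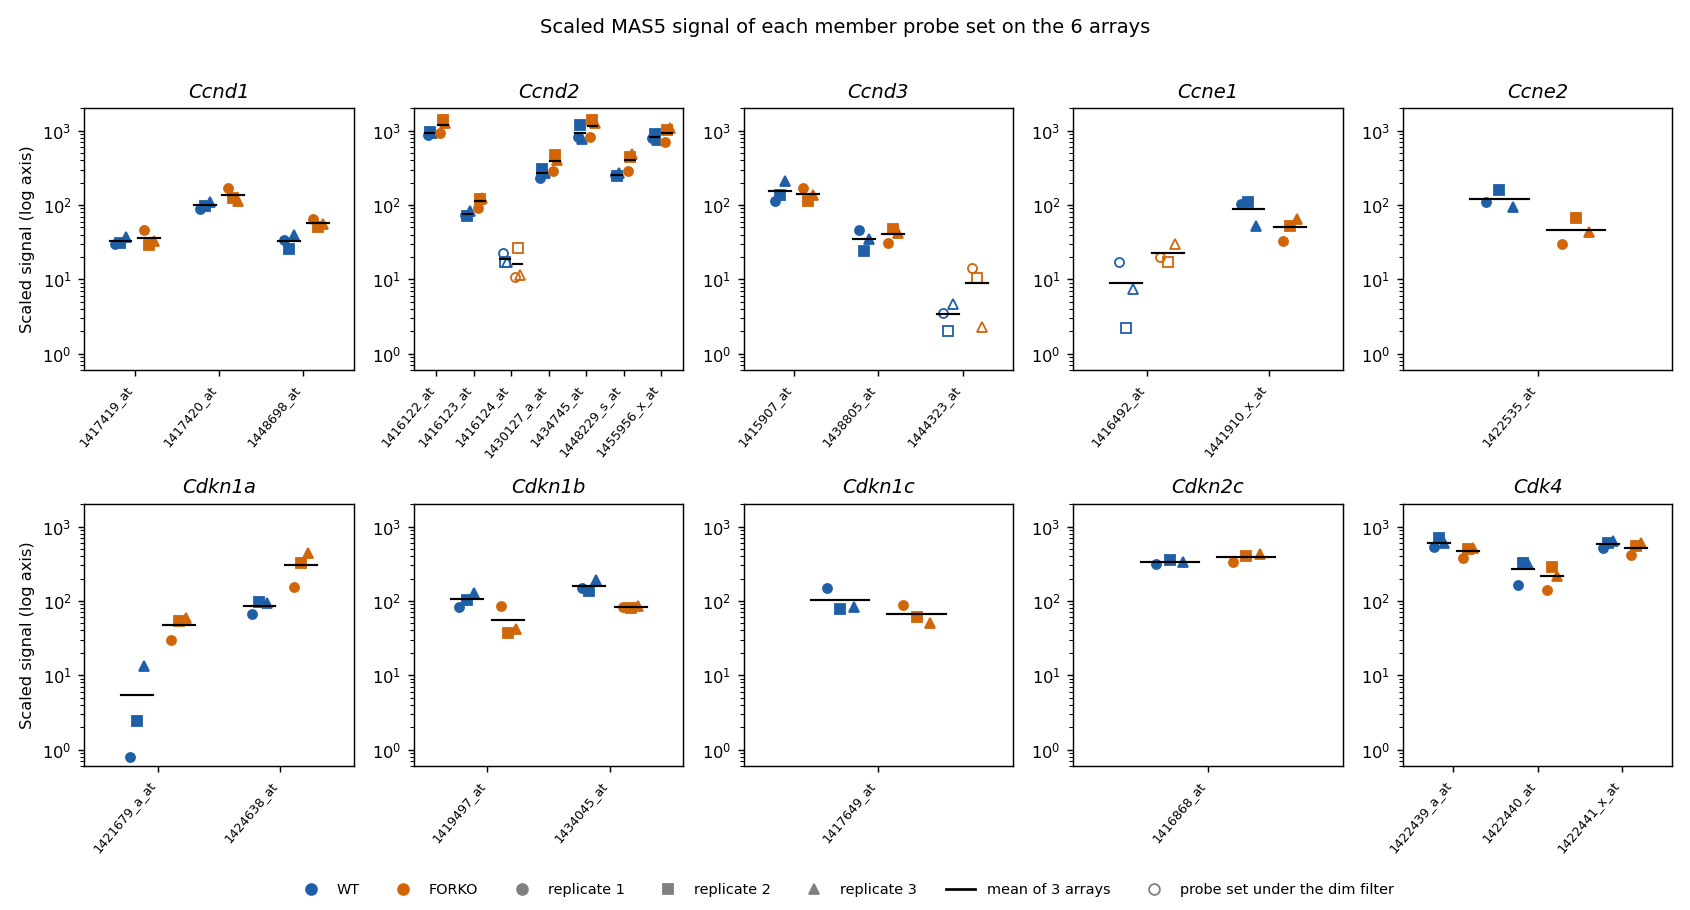
Scaled signal (log axis) of all 25 member probe sets on the 6 arrays, 1 panel per gene, WT in blue and FORKO in orange, with the symbol marking the replicate number, the bar the mean of 3 arrays, and open symbols the 3 probe sets under the dim filter. Both Cdkn1a probe sets have all FORKO arrays above all WT arrays, and the brighter Cdkn1b probe set and Ccne2 have all FORKO arrays below.

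Cdkn1a encodes p21, an inhibitor best known as a target of the tumour suppressor p53. Its brighter probe set (1424638_at) read 66.0, 97.8 and 92.7 in WT and 155.1, 324.0 and 443.7 in FORKO. Every FORKO array lay above every WT array, and FORKO replicate 1 was the lowest of the 3. The group means were 85.5 ± 17.1 and 308 ± 145 (SD, n = 3 in each), a ratio of 3.60. On the log2 scale this probe set rose by 1.68 ± 0.34 (SE; limma adjusted p = 0.0438; exact permutation p = 0.1).

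The second Cdkn1a probe set (1421679_a_at) was dim in WT, at 0.8, 2.4 and 13.2, and read 29.7, 54.2 and 58.0 in FORKO. It reached the filter through its FORKO signals, so it could hardly have been tested without a difference. The same order of arrays appeared, with FORKO replicate 1 the lowest of its group. It rose by 2.36 ± 0.42 on the log2 scale (SE; limma adjusted p = 0.0276). The calls lay close to the threshold. For 1424638_at, leaving out WT replicate 1, 2 or 3 gave adjusted p values of 0.160, 0.142 and 0.128, leaving out FORKO replicate 2 or 3 gave 0.0981 and 0.111, and leaving out FORKO replicate 1 gave 1.71e-04. For 1421679_a_at the call was lost on leaving out WT replicate 1 (0.0977) or 2 (0.128) and FORKO replicate 2 (0.0741) or 3 (0.106), and kept on leaving out WT replicate 3 (0.0312) or FORKO replicate 1 (0.00334).

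Cdkn1b encodes p27, which binds and blocks cyclin E and Cdk2. Its brighter probe set (1434045_at) read 148.4, 136.9 and 189.3 in WT and 83.5, 79.6 and 86.5 in FORKO. Each FORKO array was lower than each WT array, and the FORKO arrays were closer to each other than the WT arrays were. The fall was 1.90-fold by the ratio of means, a log2 change of -0.87 ± 0.18 (SE; limma adjusted p = 0.0498). The adjusted p was 0.117 to 0.166 without any single WT array and 0.120 and 0.122 without FORKO replicates 2 and 3, and it was 0.0316 without FORKO replicate 1.

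The other Cdkn1b probe set (1419497_at) read 83.6, 104.4 and 127.4 in WT and 86.2, 37.1 and 42.0 in FORKO. Here FORKO replicate 1 fell within the WT range while replicates 2 and 3 lay below it. Its change was -0.93 ± 0.30 (log2, SE; limma adjusted p = 0.179), and without FORKO replicate 1 it was -1.27 (limma adjusted p = 0.00630). Both probe sets had the same sign, and they disagreed on FORKO replicate 1.

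Because these 2 inhibitors carried the calls, the stretches just before their annotated starts are shown, from RefSeq on GRCm38.p6, as the 250 bases upstream of each start on the plus strand. Capitals mark p53 decamers (the repeat unit of the p53 consensus), the letters GGGCGG of the GC box and the CCAAT box; all were searched on both strands (the p53 consensus reads the same on either), and no marked match overlaps another. The windows are chr17:29090729-29090978 and chr17:29093519-29093768 for 2 annotated starts of Cdkn1a and chr6:134920151-134920400 for Cdkn1b.
Cdkn1a, first start: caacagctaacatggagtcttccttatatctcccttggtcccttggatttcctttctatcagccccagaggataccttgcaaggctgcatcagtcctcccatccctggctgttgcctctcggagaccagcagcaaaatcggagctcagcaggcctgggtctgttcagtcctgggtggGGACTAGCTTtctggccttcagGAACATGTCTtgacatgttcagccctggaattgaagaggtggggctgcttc
Cdkn1a, second start: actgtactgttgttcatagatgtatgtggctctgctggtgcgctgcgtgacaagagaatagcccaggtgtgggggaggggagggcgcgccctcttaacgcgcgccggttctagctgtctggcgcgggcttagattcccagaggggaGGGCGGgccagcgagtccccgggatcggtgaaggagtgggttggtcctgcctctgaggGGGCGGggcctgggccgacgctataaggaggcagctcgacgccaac
Cdkn1b: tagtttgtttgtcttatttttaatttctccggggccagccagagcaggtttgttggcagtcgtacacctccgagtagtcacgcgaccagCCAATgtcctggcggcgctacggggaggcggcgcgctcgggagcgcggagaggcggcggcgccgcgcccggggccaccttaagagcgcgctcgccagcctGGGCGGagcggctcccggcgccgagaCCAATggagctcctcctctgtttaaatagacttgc

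The window of the first Cdkn1a start held 2 p53 decamers and no GC or CCAAT box, and that of the second start held 2 GC boxes. The Cdkn1b window held 1 GC box and 2 CCAAT boxes. Of 32851 promoter windows of 250 bases, 7.13% held a p53 decamer, 32.7% a GC box and 33.8% a CCAAT box. The E2F motifs TTTGGCGC and TTTCCCGC (0.417% and 0.895% of windows), the FOXO motif GTAAACA (3.17%), the E-box CACGTG (6.02%) and TATAAA (12.4%), searched on both strands, had no match in these 3 windows. Such letters describe the windows and show no binding. Windows were on hand for 6 of the 10 genes; those of Ccnd1, Ccnd2, Ccne2 and Cdkn1c were not used here.

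Cdkn1c encodes p57, the third CIP/KIP inhibitor, which is expressed from the maternal allele. It read 150.7, 77.8 and 83.5 in WT and 89.0, 61.1 and 51.0 in FORKO. WT replicate 1 was the highest of all arrays, and FORKO replicate 1 lay above the other 2 WT arrays, so the groups overlapped. Cdkn1c changed by -0.57 on the log2 scale (95% interval -1.20 to 0.07; limma adjusted p = 0.402), and by -0.28 without WT replicate 1.

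Cdkn2c encodes p18, which binds Cdk4 and Cdk6 directly. It read 314.4, 359.9 and 335.0 in WT and 330.4, 402.7 and 432.5 in FORKO. FORKO replicates 2 and 3 were above all WT arrays, and replicate 1 was among them. Cdkn2c changed by 0.20 on the log2 scale (95% interval -0.17 to 0.57; limma adjusted p = 0.646).

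**Figure D2:**
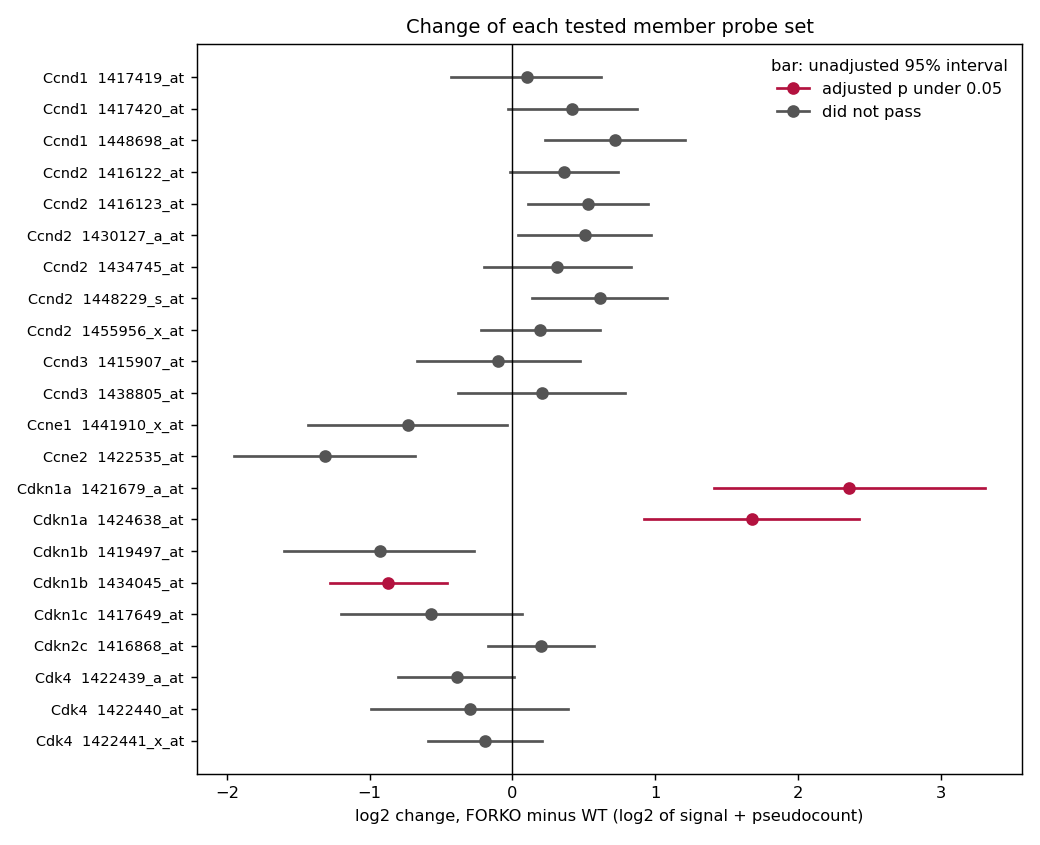
Log2 change (FORKO minus WT, horizontal axis) of the 22 tested member probe sets, with bars for the unadjusted 95% interval; red marks an adjusted p under 0.05. The Cdkn1a probe sets lie at 1.68 and 2.36, Cdkn1b at -0.87 and -0.93, Ccne2 at -1.31, and all 6 Ccnd2 probe sets between 0.19 and 0.61.

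The D-type cyclins had small changes, and none of their 11 tested probe sets passed limma's test. In that test 4 had an unadjusted p under 0.05, Ccnd1 1448698_at and Ccnd2 1416123_at, 1430127_a_at and 1448229_s_at. Such p values were common, as a p of 0.0504 ranked 3300 among all 22506 probe sets tested. Ccnd2, the cyclin linked to FSH in granulosa cells, was represented by the probe set 1416122_at, which read 863.2, 966.9 and 933.3 in WT. In FORKO it read 941.8, 1394.7 and 1262.4. FORKO replicates 2 and 3 were above every WT array, and replicate 1 was within the WT range. For 1416122_at the log2 change was 0.36 (95% interval -0.02 to 0.74; limma adjusted p = 0.366).

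All 6 tested Ccnd2 probe sets had positive changes, from 0.19 to 0.61, and in each of them FORKO replicate 1 was the lowest of the 3 FORKO arrays. In 1448229_s_at, whose suffix marks probes shared by transcripts of several genes, WT read 252.8, 243.1 and 272.0 and FORKO 285.4, 438.9 and 483.1. These groups did not overlap, with FORKO higher by 0.61 ± 0.21 in log2 (SE; limma adjusted p = 0.213). Without FORKO replicate 1 it was 0.83 (limma adjusted p = 0.0156), while the other 5 did not pass (0.0584 to 0.255). The groups also did not overlap for 1416123_at, at 73.2, 71.7 and 82.1 in WT and 91.7, 121.1 and 124.5 in FORKO. Its log2 change was 0.53 (limma adjusted p = 0.227). They overlapped for the rest. WT against FORKO, 1430127_a_at read 233.1, 304.5 and 270.9 against 291.0, 478.0 and 403.6. For 1434745_at these were 815.3, 1178.7 and 777.6 against 821.6, 1373.4 and 1272.4. For 1455956_x_at they were 786.6, 897.6 and 747.9 against 708.8, 1014.4 and 1103.5. The seventh probe set (1416124_at) was under the filter, at 22.7, 17.1 and 17.3 in WT and 10.7, 26.2 and 11.3 in FORKO. Its mean was lower in FORKO (16.1 against 19.0 in WT). No tested Ccnd2 probe set had a lower mean in FORKO. By brightest probe set, FORKO replicate 1, the array with the lowest granulosa marker median, was also the lowest of its group for Cdk4, Ccne1, Ccne2, Cdkn2c and Cdkn1a. It was the highest of its group for Ccnd1, Ccnd3 and Cdkn1c. For Cdkn1b it lay between the other FORKO arrays on 1434045_at and above them on 1419497_at. A link of Ccnd2 to granulosa content was not tested.

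Ccnd1 is the D-type cyclin found in most cycling tissues. Its brightest probe set (1417420_at) read 88.7, 98.4 and 109.7 in WT and 171.3, 124.2 and 112.8 in FORKO, and 1448698_at read 33.8, 25.4 and 39.1 against 65.1, 50.1 and 56.4. The groups did not overlap for either, FORKO being higher. FORKO replicate 1 was the highest of its group in all 3 Ccnd1 probe sets, the reverse of Ccnd2. The log2 changes were 0.42 and 0.72 (95% intervals -0.03 to 0.87 and 0.23 to 1.21; limma adjusted p = 0.378 and 0.160), and 0.25 and 0.63 without FORKO replicate 1. The third, 1417419_at, changed by 0.10, with FORKO replicate 1 at 46.0 and all other arrays between 28.6 and 37.3.

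Ccnd3 is the D-type cyclin known best from blood cells and differentiated tissues. Its brightest probe set (1415907_at) read 111.7, 137.1 and 213.9 in WT and 170.3, 114.8 and 135.0 in FORKO. The groups overlapped throughout, and the log2 change was -0.10 (95% interval -0.67 to 0.47), with its sign turning positive when arrays were scaled to bacterial spikes. The probe set 1438805_at changed by 0.21 (0.09 without FORKO replicate 2 and 0.00 without WT replicate 2), and 1444323_at was under the filter at 2.0 to 14.1.

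Cdk4, the kinase partner of the D-type cyclins, had 3 probe sets with negative changes, -0.39, -0.30 and -0.19. They were -0.26, -0.03 and -0.04 without FORKO replicate 1. In 1422439_a_at, WT read 523.3, 707.4 and 597.9 and FORKO 381.8, 492.6 and 517.6. Those groups did not overlap, and FORKO replicate 1 was the lowest array in all 3 probe sets. The adjusted p was 0.360 to 0.727 in limma's test. The probe set 1422440_at read 166.0, 323.5 and 310.7 in WT and 141.0, 287.4 and 217.8 in FORKO. The brightest on average over WT and FORKO, 1422441_x_at, read 509.4, 609.4 and 640.9 against 417.6, 540.5 and 593.4; its suffix marks probes that may also bind other sequences.

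**Figure D3:**
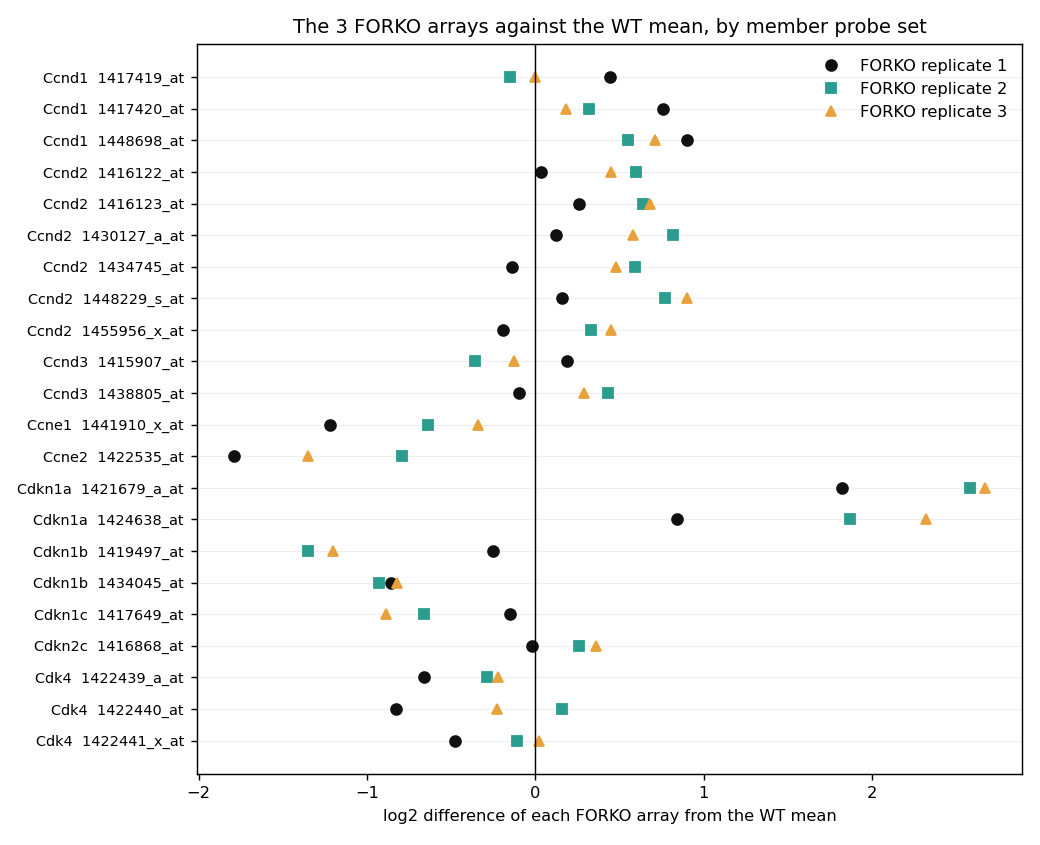
Log2 difference of each FORKO array from the WT mean (horizontal axis) for the 22 tested member probe sets, with replicates 1, 2 and 3 as black circles, green squares and yellow triangles. Replicate 1 is the lowest FORKO array for every Ccnd2 and Cdk4 probe set and the highest for every Ccnd1 probe set; for Ccne2 the values are -1.79, -0.79 and -1.35.

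The E-type cyclins had negative changes in their brighter probe sets, and neither passed. Ccne2 (1422535_at) read 110.3, 158.1 and 94.5 in WT and 30.1, 66.0 and 42.8 in FORKO. The groups did not overlap, FORKO being lower, and FORKO replicate 1 was the lowest array. Ccne2 changed by -1.31 ± 0.28 on the log2 scale (SE; limma adjusted p = 0.0561; exact permutation p = 0.1). Ccne2 passed with the replicate number as a block, a pairing found in these same data (limma adjusted p = 0.0182). In that fit 3.07% of all probe sets passed. Ccne2 also passed without FORKO replicate 1 (0.0336), without FORKO replicate 2 (0.0319) and under 3 other scalings (0.0441 to 0.0493). It did not pass without WT replicate 1, 2 or 3 (0.151, 0.225 and 0.113) or FORKO replicate 3 (0.143), nor with scaling to bacterial spikes (0.0829), no filter (0.101), no intensity trend (0.0763) or pseudocounts of 1 and 16 (0.0584 and 0.0540). The change was negative in all of these fits.

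For Ccne1 the 2 probe sets had opposite signs. The brighter one (1441910_x_at), which may also bind other sequences, read 103.0, 110.2 and 53 in WT and 33.2, 52.3 and 65.7 in FORKO. The groups overlapped through WT replicate 3, and the log2 change was -0.73 (95% interval -1.43 to -0.04; limma adjusted p = 0.314). The other (1416492_at), annotated to the Ccne1 reference transcript, was under the filter, with 17.1, 2.2 and 7.5 in WT and 19.8, 17 and 30.3 in FORKO. The direction for Ccne1 is therefore unsettled.

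Genes whose centred log2 values over the 6 arrays were closest to those of a member were sought among 10850 other named genes. For Ccnd2 these were Nxn, Plekha1, Kap and Nab2, at a root mean square difference of 0.058 to 0.071. For Ccne2 they were Esco2, Ncapg, Uhrf1 and Deptor (0.146 to 0.180); Esco2 acts in sister chromatid cohesion, Ncapg in condensin and Uhrf1 in copying DNA methylation. Esco2 read 53.1, 83.1 and 36.3 in WT and 15.1, 29.4 and 18.5 in FORKO, with the same order of arrays within each group as Ccne2. For Cdkn1b they were Zfp503, Dync1i1, Ebf1 and Pappa (0.088 to 0.136). With 6 arrays in 2 groups, such closeness is a description.

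Around these members, 51 further genes of the G1/S pathway and of cell division were listed, of which 46 were tested. None of the 46 passed limma's test, 13 had an unadjusted p under 0.05, all of them lower in FORKO, and 38 had a negative change (52.6% of all genes did). Their median log2 change was -0.28, beside -0.02 for all genes tested. Without FORKO replicate 1 the median was -0.17, 33 changes were negative (50.5% of all genes), and 9 of 12 genes at an unadjusted p under 0.05 were lower. Of the 46, 7 had such a p without WT replicate 2 and 8 without WT replicate 3, all lower. The groups did not overlap for 16 of the 46, each with FORKO lower and 0 with FORKO higher, against 12.0% with FORKO lower among all genes. Scaling to bacterial spikes moved the median of all genes to 0.14 and that of the 46 to -0.12, with 26 negative changes.

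Among the pathway lists of more than 2 genes, the proliferation markers had the most negative median. All 10 proliferation markers had negative changes (median -0.57), with no overlap for 8, and none passed. In limma's test 8 had an unadjusted p under 0.05, against 6 without FORKO replicate 1 and 4 without WT replicate 2. Without FORKO replicate 1, Aurka, a mitotic kinase, turned positive (0.20), Plk1 was at -0.15, and the list's median was -0.50. Only Pcna and Mcm5 had larger falls then, -0.60 and -0.64, against -0.52 and -0.57 with all arrays. Bub1, a spindle checkpoint kinase, read 66.2, 130.4 and 88.2 in WT and 13.4, 58.1 and 47.7 in FORKO (a difference of -1.27 in log2; limma adjusted p = 0.200, and 0.0400 with the replicate block). The Bub1 difference was -0.74 without FORKO replicate 1 (limma adjusted p = 0.170). Top2a, the topoisomerase of dividing cells, changed by -0.85, and by -0.45 without that array. The S and M phase cyclins Ccna2 and Ccnb2 changed by -0.59 and -0.60, with FORKO replicate 1 the lowest array for both, at 48.3 and 27. Without it their changes were -0.16 and -0.09.

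E2F factors and their DP partners had 9 of 9 negative changes (median -0.26), and none passed, with an unadjusted p under 0.05 for 2. E2f8 and E2f7, repressive members that are made late in the cycle, changed by -0.61 and -0.58, and the groups did not overlap for either. Without FORKO replicate 1 these were -0.39 and -0.34, and 7 of the 9 factors were negative (6 without WT replicate 2). With spike scaling 5 of the 9 were negative. None of the 3 retinoblastoma family genes passed (0 at an unadjusted p under 0.05 in limma's test): Rb1 changed by 0.24 and Rbl2 by -0.08.

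Among kinases and their activating complex, Cdk1 changed by -0.54 and Cdk2, the partner of cyclin E, by -0.42, and 0 of 6 passed (1 at an unadjusted p under 0.05 in limma's test). The changes of Cdk1 and Cdk2 were -0.21 and -0.46 without FORKO replicate 1. Cdk2 read 75.7, 111.0 and 77.0 in WT and 67.7, 61.1 and 61.4 in FORKO, without overlap. Of 6 genes for the turnover of cyclin E and p27, none passed and 5 had negative changes. Skp2, the ubiquitin ligase subunit that marks p27 for destruction, read 344.2, 294.7 and 252.4 in WT and 183.6, 213.9 and 186.7 in FORKO, and its partner Cks1b changed by -0.33. Skp2 changed by -0.59 (95% interval -0.98 to -0.19; limma adjusted p = 0.151), and its groups did not overlap.

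The 4 kinase-phosphorylation genes had negative changes that did not pass, led by the inhibitory kinase Wee1 (-0.31) and the phosphatase Cdc25c (-0.29), which were -0.58 and -0.04 without FORKO replicate 1. Of the other CDK inhibitors, Cdkn2b, which encodes p15, read 36.1, 22.0 and 35.1 in WT and 21.4, 117.7 and 89.6 in FORKO. FORKO replicates 2 and 3 were above all WT arrays, and replicate 1 was the lowest array of all 6. Its log2 change was 0.92 (limma adjusted p = 0.432), and without FORKO replicate 1 it was 1.58 (limma adjusted p = 0.00331). Cdkn2d changed by -0.02.

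Among upstream regulators, Myc, a driver of G1 cyclin genes, read 82.4, 93.5 and 111.6 in WT and 35.6, 39.3 and 77.5 in FORKO. The groups did not overlap, and Myc changed by -0.91 ± 0.28 (log2, SE; limma adjusted p = 0.158). Mdm2, a p53 target that also restrains p53, changed by 0.35 (95% interval -0.20 to 0.91, limma adjusted p = 0.581), and its groups overlapped. Trp53, the gene of p53, was not among the genes tested. Foxo1, a transcription factor abundant in granulosa cells, read 282.9, 1023.8 and 1182.4 in FORKO, around a WT range of 527.5 to 732.0. It passed without FORKO replicate 1 (log2 change 0.79; limma adjusted p = 0.0265), but not with all arrays (0.921).

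**Figure D4:**
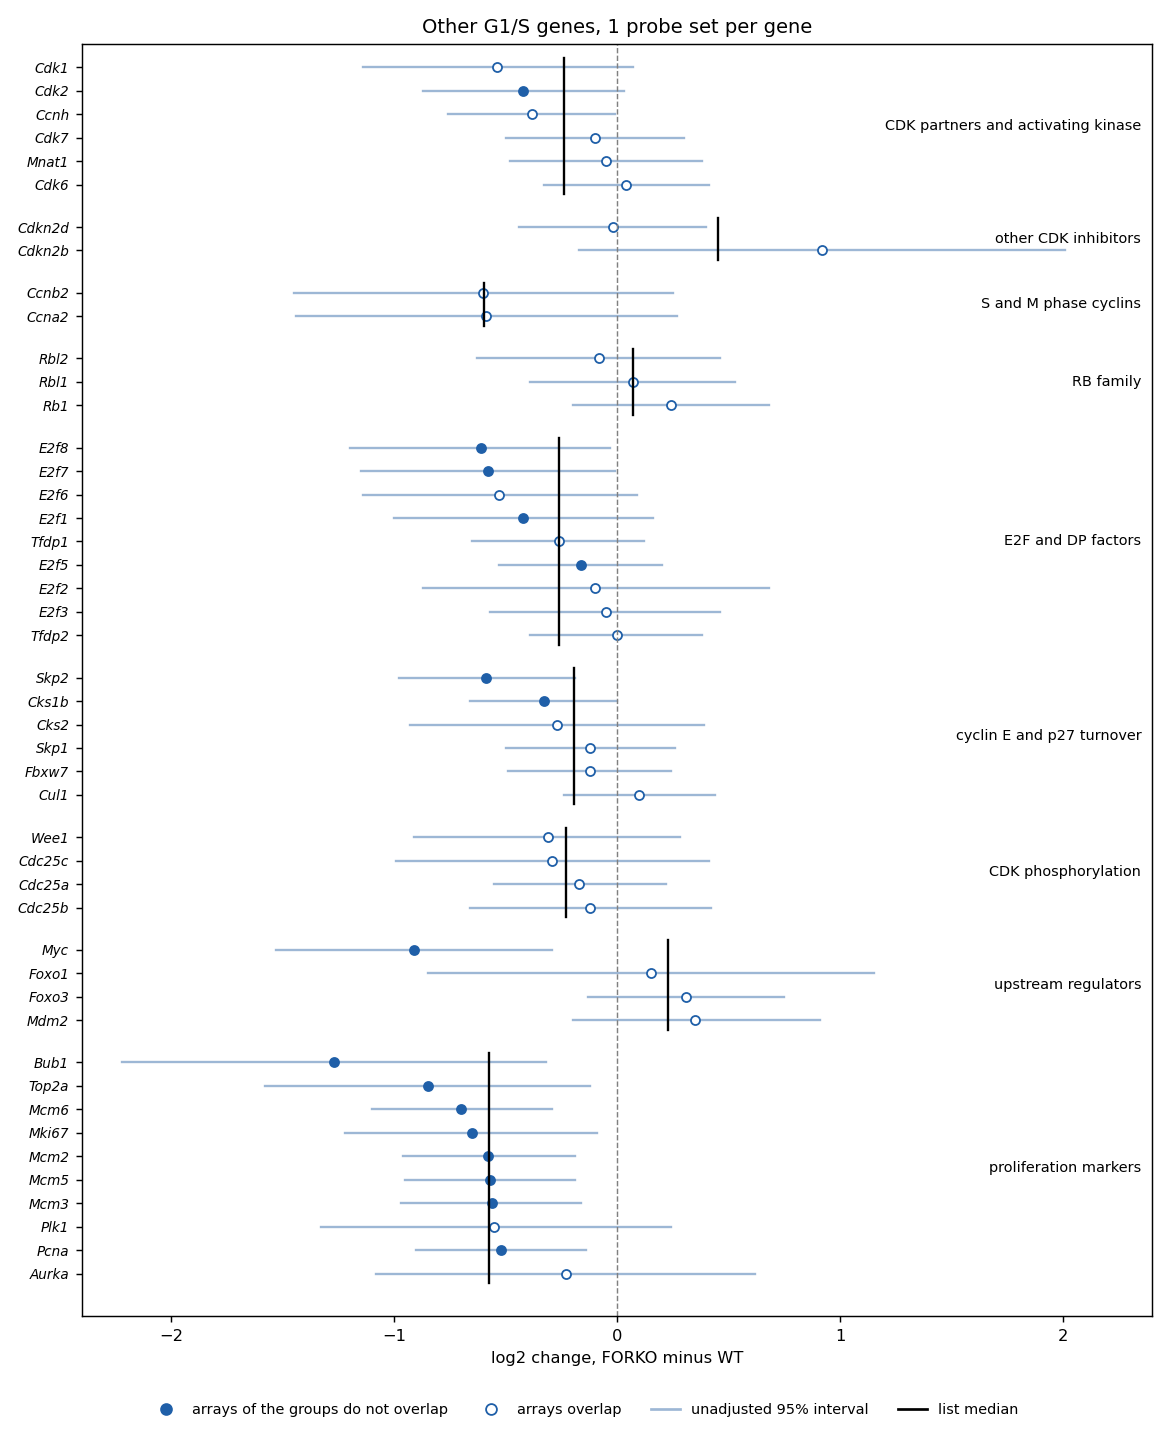
Log2 change (FORKO minus WT, horizontal axis) of 46 other G1/S and cell division genes in 9 lists, 1 probe set per gene, with pale bars for the unadjusted 95% interval, filled symbols where the arrays of both groups do not overlap, and black lines for list medians. No gene passed after adjustment; the proliferation markers have a median of -0.57 and the E2F and DP factors one of -0.26.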

How the data were processed

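Intensities are MAS5 signals that the authors deposited as 1 linear value per probe set and array, per the submitters' processing notes. For the scaling target and presence calls, the method is not given in the sources used here. Deposited intensities ran from 0 to 9781. Each array was multiplied by a factor (0.895 to 1.093) that equalised its mean without the outer 2% at either tail, and 5.73, the pooled 25th percentile, was added before log2. Control probe sets (64) were dropped. The 22506 probe sets with a mean scaled signal of at least 20.4, the median, entered a limma fit (version 3.58.1, R 4.3.3; eBayes with an intensity trend, two-sided, Benjamini-Hochberg), a procedure checked on simulated data. Plots used matplotlib 3.10.9. The number of arrays limits the precision, and a p-value covers only the spread between these 6 samples, which may be technical in part.

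Genes were named from the platform annotation, for probe sets with 1 symbol; all 25 member probe sets matched the GRCm38.p6 gene table, and 0 symbols changed. A gene was represented by its brightest tested probe set. Named are all member probe sets, Fshr, per pathway list the genes that passed or the 2 largest changes (others singled out were chosen after their values were seen), and the 4 genes closest to Ccnd2, Ccne2 and Cdkn1b. Members and lists were chosen with earlier results of these data known.

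No arrays were identical (0 pairs). Within-group deviations of WT and FORKO arrays with the same number correlated at 0.195, 0.134 and 0.358. Every pair exceeded 0.1, a pairing found in the data, which no label states. The main fit used no pairing, and the block is an alternative. Because the block was taken from deviations in these same data, calls gained with it are a description. Other alternatives covered scaling, pseudocount, filter, variance model, probe set choice and each array left out.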

Additional observations from a re-analysis of the deposited data

How the results depend on the processing

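Over all probe sets, 372 passed, and 590 did with scaling to bacterial spikes, 221 with no filter, 191 with an upper quartile filter, 691 with the replicate block (363 of them among the 372) and 62 to 864 with an array left out. The share of higher calls was 64.0%, 50.6% with arrays scaled to the same median and 84.1% with spikes. Of the member probe sets, 3 passed, against 1 with a pseudocount of 1 and 1 without the intensity trend. With no filter 0 passed, with the upper quartile filter 0, and with an array left out 0 to 6 (6 without FORKO replicate 1). The fits without a filter or with a stricter one adjusted for another number of probe sets. Cdkn1a 1421679_a_at and Ccne2 were not tested under the upper quartile filter. With the replicate block 4 passed, Ccne2 being added, and the block changed no other member call. Of the pathway genes 0 passed, against 1 with the block (Bub1), 1 with the mean of all probe sets of a gene (Mcm6) and 0 to 2 with an array left out (Cdkn2b and Foxo1, without FORKO replicate 1). The Fshr change was -2.90, and -3.17 to -2.46 with an array left out; it did not pass without WT replicate 1 or 3 (limma adjusted p = 0.0526 and 0.0598), and it was not tested under the upper quartile filter. Signs turned for Ccnd3 1415907_at (0.07 with spikes, 0.15 without WT replicate 3, 0.03 without FORKO replicate 2; -0.30 to 0.15 with an array left out) and Ccnd1 1417419_at (-0.08 without FORKO replicate 1; -0.08 to 0.22 with an array left out). The cause was not tested. Cdkn1a 1424638_at did not pass without the trend (limma adjusted p = 0.0676), with no filter (0.072) or with the upper quartile filter (0.0545). For Cdkn1a 1421679_a_at the call was lost with a pseudocount of 1 (0.051) and with no filter (0.0541). Cdkn1b 1434045_at also did not pass as deposited (0.0831), with spikes (0.122), with pseudocounts of 1 and 16 (0.0508 and 0.0506) or without the trend (0.0663; limma adjusted p). Over the 22 tested member probe sets, 306 values under the alternatives kept sign and side of the threshold, 26 lost the call, 8 gained it and 4 changed sign.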
